A study of Mus musculus with 10 samples.

Results

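The keratin genes were chosen by symbol: every row of the count table named Krt followed by a number and at most 1 letter, which leaves out keratin-associated protein genes and pseudogenes. This gave 54 of 53167 listed genes, of which 4 were grouped as basal, 6 as luminal, 18 as keratins of stratified epithelia and 24 as hair or hair follicle keratins. Krt222 and Krt88 were left outside these groups. All RNA came from wild-type mouse mammary epithelial cells in primary culture, in DMEM with fetal bovine serum and antibiotics. The 5 samples of the BGN group received biglycan protein, a matrix proteoglycan, at 100 ng/mL, and the 5 Control samples received none. The comparison is of cells with and without the added protein. No duration of stimulation is labelled, nor whether each replicate was its own animal or culture, so the spread and the p-values describe these samples and may be technical.

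Keratins build the intermediate filaments of epithelial cells. Each filament pairs a type I keratin with a type II keratin, and the pair a cell makes depends on its layer. In the mammary gland, basal and myoepithelial cells are known for the Krt5 and Krt14 pair, while luminal cells are known for Krt8 with Krt18 or Krt19. Krt6a, Krt16 and Krt17 are known for induction in wounded or hyperproliferative epidermis, Krt1 and Krt10 for the differentiating layers of skin, and the hair keratins for the follicle and its shaft.

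Library totals ran from 18292624 to 21820560 counts, and keratins took between 0.786% and 0.966% of them. Control replicate 5 stood apart in several measures. It had the highest keratin share, 0.966% (95% Wilson interval 0.962% to 0.971%, counting error only), while genes of the mitochondrial genome took 1.16% of its counts, where the remaining 9 libraries had 1.80% to 2.27%. BGN replicate 5 had the lowest keratin share, 0.786% (0.783% to 0.790%). The epithelial label fitted the markers: the summed level of 5 epithelial markers led by Epcam lay between 2160 and 2314 CPM (counts relative to the TMM-scaled library size) over the 10 libraries. Sums of 6 myoepithelial markers led by Trp63 lay between 391 and 419 CPM, and of 5 luminal progenitor markers led by Csn3 between 2049 and 2511 CPM. The myoepithelial sum was uneven: Trp63 had 208 CPM on average and Acta2 27.7 CPM, and only 4 of the 6 genes had enough reads to test. Markers of differentiated skin, 7 genes that include Krt1 and Krt10, summed to at most 46.4 CPM, most of it Sbsn (31.4 CPM on average). Sums of 7 fibroblast markers lay between 40.0 and 58.9 CPM, of 5 endothelial markers between 4.47 and 6.07 CPM, of 6 leukocyte markers between 2.12 and 4.23 CPM (Cd3e at 0 in every library) and of 4 adipocyte markers between 8.20 and 13.2 CPM. These sums overlapped between BGN and Control, and their part in the keratin values was not tested.

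Letters upstream of the start site, which played no part in the choice of genes, were compared between keratins with enough reads to test and those without. RefSeq gave 37 promoter windows for 36 of the 54 keratins, matched by symbol (build GRCm38.p6, not the build of the counts). Of these, 34 had a start within 100 bases of a protein-coding start in GENCODE M21 and were used. The exact TATA box letters TATAAA, sought on both strands in the 100 bases before the start, occurred in 13 of 23 windows of keratins with too few reads to test (56.5%) and in 2 of 11 windows of tested keratins (18.2%), namely Krt10 and Krt71. Over 32851 windows of all genes the share was 5.56%. The difference is a description, with no test, and holds for the exact letters only. It also mixes the 2 keratin clusters, since most untested windows lie on chr11 and most tested ones on chr15. Of the untested windows with TATAAA, only those of Krt73 and Krt76 lie on chr15. Untested Krt2, Krt72, Krt77, Krt82, Krt84 and Krt90 on chr15 lack it, as do all tested windows there but Krt71. Cluster and read level were not separated. Near matches were not counted and occur on both sides. The windows of tested Krt5 and Krt78 hold gataaaag, and those of untested Krt2 and Krt24 hold tatataag. The shares therefore do not say how many keratins have a TATA-like stretch. The GC box letters GGGCGG, also sought on both strands, occurred in 2 of 11 windows of tested keratins (Krt7 and Krt75), in 0 of 23 of the untested and in 24.7% of all windows. The letters GCCNNNGGC, bound by AP-2 factors, occurred in 3 of 11 (Krt7, Krt18 and Krt42), in 0 of 23 and in 6.78% of all. For CCAAT these values were 1 of 11, 3 of 23 and 18.9%, and for the AP-1 letters TGANTCA they were 0, 0 and 2.73%. A match describes the letters and not a used site. Most of the 11 tested genes were themselves scarce, and Krt14 and Krt8 had no window that met the distance limit. The 8 windows below were picked to show both cases and are no sample: Krt5, Krt7 and Krt18, the tested genes of at least 100 CPM among the 11, and Krt71 are tested, and Krt28, Krt73, Krt76 and Krt90 are not. Krt71 holds TATAAA though tested, and Krt90 is 1 of the 10 untested windows that lack it. Capitals mark TATAAA or GGGCGG on either strand.
Krt5, chr15:101712906-101713005, minus strand: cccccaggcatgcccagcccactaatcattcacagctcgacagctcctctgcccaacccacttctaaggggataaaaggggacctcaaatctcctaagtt
Krt7, chr15:101412303-101412402, plus strand: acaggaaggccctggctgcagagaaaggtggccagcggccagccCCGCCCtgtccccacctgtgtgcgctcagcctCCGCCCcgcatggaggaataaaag
Krt18, chr15:102028116-102028215, plus strand: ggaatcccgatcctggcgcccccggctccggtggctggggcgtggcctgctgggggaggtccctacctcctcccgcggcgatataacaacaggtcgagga
Krt71, chr15:101743098-101743197, minus strand: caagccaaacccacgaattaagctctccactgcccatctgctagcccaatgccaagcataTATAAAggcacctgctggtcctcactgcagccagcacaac
Krt28, chr11:99374904-99375003, minus strand: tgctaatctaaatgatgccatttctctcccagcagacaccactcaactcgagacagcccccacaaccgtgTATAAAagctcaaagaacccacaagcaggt
Krt73, chr15:101802361-101802460, minus strand: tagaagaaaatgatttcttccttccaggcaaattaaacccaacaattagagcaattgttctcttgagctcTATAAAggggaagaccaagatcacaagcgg
Krt76, chr15:101892921-101893020, minus strand: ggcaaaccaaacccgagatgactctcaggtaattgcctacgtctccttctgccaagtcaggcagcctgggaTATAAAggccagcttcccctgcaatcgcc
Krt90, chr15:101562951-101563050, minus strand: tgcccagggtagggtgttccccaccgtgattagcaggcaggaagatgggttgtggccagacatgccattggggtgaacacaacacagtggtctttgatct

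A few keratins carried nearly all of the signal. Krt14 alone held 43.3% of all keratin counts, Krt14 and Krt5 together 61.3%, and the 5 most abundant genes (Krt14, Krt5, Krt8, Krt19 and Krt18) 88.6%. Basal keratins made up 62.6% to 64.5% of the keratin counts of a library, luminal keratins 30.1% to 31.1%, stratified keratins 5.38% to 6.24% and hair keratins 0.0339% to 0.0501% in BGN and 0.0279% to 0.0362% in Control. The ratio of basal to luminal keratin counts was 2.05 ± 0.0448 in BGN and 2.07 ± 0.0518 in Control (SD, n = 5 each, as for all values by group below), with a range of 2.01 to 2.15 over all libraries. In bulk RNA, more cells of a layer and more RNA per cell cannot be told apart.

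Levels between genes were compared per kilobase of the longest principal transcript. Krt14 led at 2142 CPM per kb (2016 to 2545 over the 10 libraries), followed by Krt5 at 689 (619 to 762). The luminal keratins came next, Krt19 at 516 (450 to 624), Krt8 at 458 (436 to 499) and Krt18 at 406 (366 to 450) CPM per kb. Krt19 exceeded Krt8 in 10 of 10 libraries, by 1.02-fold to 1.29-fold, and Krt18 stood below Krt8 in all 10. Krt6a stood at 161, Krt17 at 97.7 and Krt7 at 68.8 CPM per kb. Krt79, a keratin of sebaceous and hair follicle ducts, reached 46.3 CPM per kb, which placed it above Krt16 (12.4) and Krt15 (8.82). Per kilobase of all annotated exons the means of Krt19, Krt7 and Krt79 were 439, 39.9 and 20.4, and Krt19 then exceeded Krt8 in only 2 libraries, so the order of these genes rests on the length. Krt80, at 1.18 CPM per kb, was at 0.568 on that length. The tested keratins not yet named ran from 3.16 (Krt6b) down to 0.133 (Krt75) CPM per kb.

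**Figure D1:**
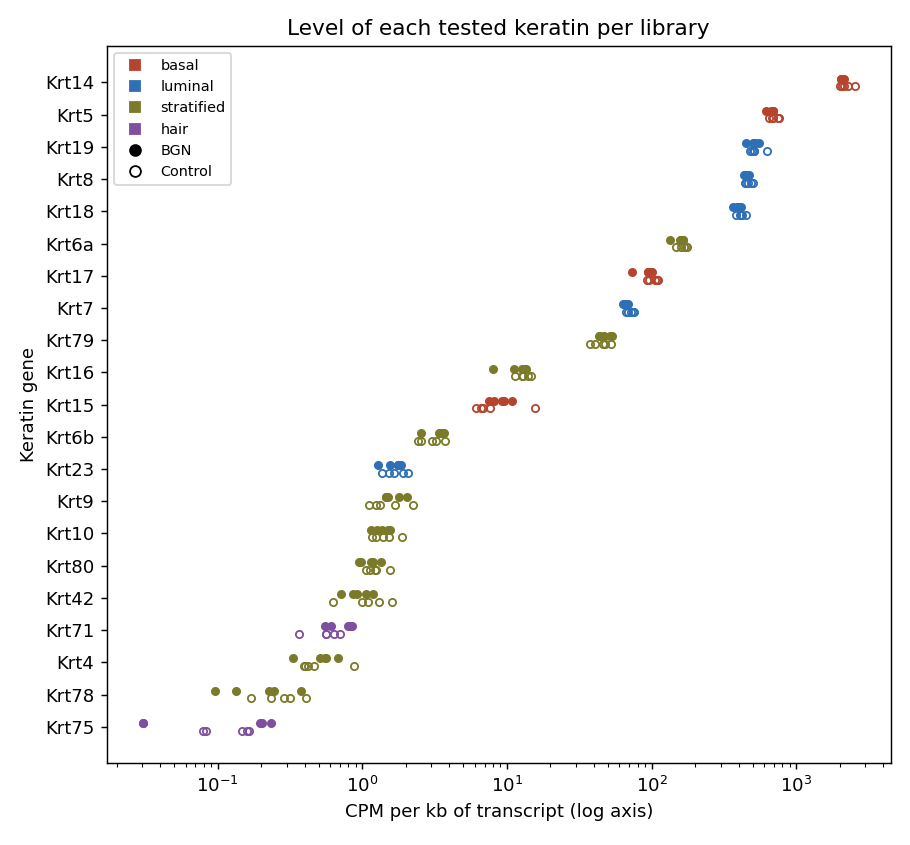
CPM per kb of transcript on a log axis for each of the 21 tested keratins, 1 point per library, filled for BGN and open for Control, coloured by group. Krt14 stands at the top near 2142 CPM per kb, the 3 luminal keratins Krt19, Krt8 and Krt18 follow Krt5, and the groups of points for BGN and Control overlap in every gene.

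Type I and type II keratins were not equal in total. Summed per kilobase, the 28 type I genes exceeded the 26 type II genes 2.22 ± 0.0536-fold in BGN and 2.24 ± 0.118-fold in Control, and the highest value, 2.45, was that of Control replicate 5. Within the basal pair, Krt14 exceeded Krt5 between 2.92-fold and 3.34-fold. Within the luminal pair, Krt18 stood at 0.832 to 0.951 of the level of Krt8. Krt19, a type I keratin that lacks most of the tail domain, exceeded Krt7 between 6.75-fold and 8.47-fold, a ratio that rests on the length taken for Krt7.

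In the basal group, Krt14 was measured at 3442, 3449, 3593, 3642 and 3513 CPM in BGN replicates 1 to 5 and at 3845, 3526, 3607, 3422 and 4322 CPM in Control replicates 1 to 5. Control replicates 5 and 1 were the highest, and the lowest library was also a Control. Krt5, its type II partner, was at 1523, 1461, 1524, 1528 and 1360 CPM in BGN and at 1631, 1491, 1527, 1416 and 1675 CPM in Control. Again Control replicates 5 and 1 were highest, and the lowest was BGN replicate 5. Krt17, a type I keratin of basal and stressed cells, was at 156, 154, 146, 146 and 114 CPM in BGN and at 170, 148, 165, 143 and 173 CPM in Control. BGN replicate 5 lay well under all the others. Krt15, a type I keratin known from basal and follicle stem cells, was at 13.8, 12.8, 16.1, 15.8 and 18.4 CPM in BGN and at 11.6, 11.3, 10.3, 13.0 and 26.8 CPM in Control. Here Control replicate 5 exceeded all other libraries, while the other 4 Control libraries lay below every BGN library, save that Control replicate 4 exceeded BGN replicate 2.

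In the luminal group, Krt8 was at 886, 864, 854, 919 and 861 CPM in BGN and at 977, 867, 902, 884 and 947 CPM in Control. Krt18, its type I partner, was at 581, 572, 596, 562 and 526 CPM in BGN and at 611, 594, 592, 550 and 647 CPM in Control. For both genes Control replicates 1 and 5 were the highest libraries and the groups overlapped. Krt19 was at 805, 796, 876, 812 and 708 CPM in BGN and at 803, 808, 784, 760 and 984 CPM in Control, so that, Control replicate 5 aside, BGN and Control libraries were interleaved. Krt7, a type II keratin of ducts and glands, was at 281, 269, 269, 272 and 262 CPM in BGN and at 309, 281, 293, 274 and 304 CPM in Control. Only Control replicate 4 lay below the highest BGN library. Krt23, a type I keratin at low level, had 2.58 ± 0.357 CPM under BGN against 2.67 ± 0.445 CPM without it, and Krt20, a keratin of intestinal and urothelial lining, had 1 read in all.

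Among keratins of stratified epithelia, Krt6a was the most abundant, at 375, 358, 376, 364 and 305 CPM in BGN and at 401, 383, 396, 334 and 363 CPM in Control. Krt16, its usual type I partner in wounded skin, was at 21.3, 19.9, 20.9, 17.6 and 12.5 CPM in BGN and at 21.7, 19.9, 20.1, 17.9 and 22.8 CPM in Control. BGN replicate 5 was the lowest for both. Krt6b, the near-identical neighbour of Krt6a, had 7.42 ± 0.989 CPM under BGN against 6.70 ± 1.20 CPM without it. Krt79 was at 91.5, 98.1, 91.6, 108 and 112 CPM in BGN and at 99.8, 79.2, 85.2, 96.0 and 109 CPM in Control, with both replicates numbered 5 at the top. Krt9, the keratin of palm and sole epidermis, was likewise highest in those 2 libraries, with 5.29 CPM (BGN) and 5.75 CPM (Control), against 2.87 to 4.61 CPM in the rest.

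Keratins of terminal differentiation were scarce. Krt10 had 2.87 ± 0.366 CPM under BGN against 3.02 ± 0.588 CPM without it, while its type II partner Krt1 had between 3 and 17 reads in a library and was not tested. Krt80 was at 3.44 ± 0.507 and 3.82 ± 0.566 CPM, Krt42 at 1.46 ± 0.280 and 1.74 ± 0.555 CPM, Krt4, a keratin of internal stratified epithelia, at 1.13 ± 0.265 and 1.09 ± 0.432 CPM, and Krt78 at 0.739 ± 0.375 and 0.972 ± 0.306 CPM, BGN first. The hair follicle keratins Krt71 and Krt75 were at 1.58 ± 0.299 and 0.453 ± 0.326 CPM in BGN, and at 1.24 ± 0.276 and 0.413 ± 0.136 CPM in Control. The other 22 of 24 hair keratins were not tested. At the edge of the filter on low counts, Krt75 (0.433 CPM on average) passed, and Krt1 (0.459 CPM) and Krt73 (0.450 CPM) did not.

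Of the 33 untested keratins, 21 had at least 1 read and 12 had none. Those with reads were Krt1, Krt73, Krt27, Krt90, Krt87, Krt77, Krt84, Krt32, Krt222, Krt13, Krt83, Krt74, Krt88, Krt31, Krt40, Krt12, Krt28, Krt39, Krt81, Krt76 and Krt20, with at most 17 reads in a library and a mean of at most 0.459 CPM. Those with none were Krt2, Krt24, Krt25, Krt26, Krt33a, Krt33b, Krt34, Krt35, Krt36, Krt72, Krt82 and Krt86, and a count of 0 over all 10 libraries allows a level of up to 0.0153 CPM (3 counts of the pooled total of 196686029).

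**Figure D2:**
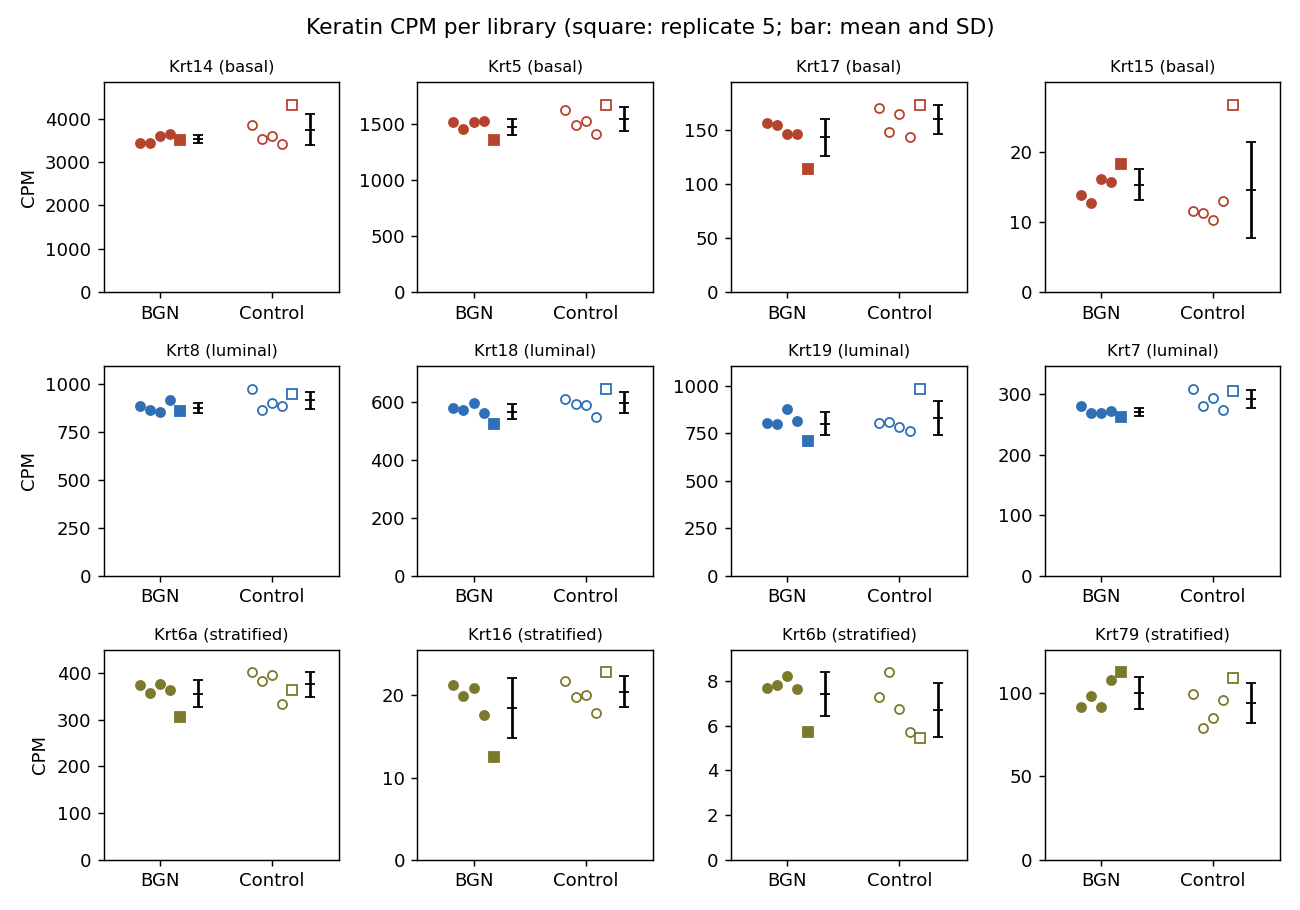
CPM of 12 keratins in each library, filled for BGN and open for Control, with a square for replicate 5 and the group mean and SD (n = 5) beside the points. Axes start at 0. The square of BGN lies lowest for Krt5, Krt17, Krt18, Krt19, Krt7, Krt6a and Krt16. The square of Control lies highest for Krt14, Krt5, Krt17, Krt15, Krt18, Krt19 and Krt16. The square of BGN is highest for Krt79, and that of Control lowest for Krt6b.

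Tested keratins sat side by side on the chromosomes. In the RefSeq gene order of GRCm38.p6, Krt15, Krt19, Krt9, Krt14, Krt16, Krt17 and Krt42 are 7 consecutive protein-coding genes, and all passed the filter on low counts. Neighbours in this run still differed widely in level: Krt9, with a mean of 4.09 CPM, lies between Krt19 (814 CPM) and Krt14 (3636 CPM). On the other cluster, Krt4, Krt79, Krt78, Krt8 and Krt18 formed a run of 5 that takes in the single type I gene of that cluster, Krt18, and Krt6b, Krt6a, Krt5 and Krt71 a run of 4. Overlap between genes limits some values, since the strand setting of the counting is not given: by the annotation, exons of Krt5, Krt6a, Krt6b, Krt7, Krt8, Krt10, Krt75 and Krt80 overlap genes on the opposite strand.

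Shared sequence limits others. Of all 50-base stretches of the annotated transcripts, 44.5% of those of Krt6b also occur in Krt6a and 40.2% of those of Krt6a in Krt6b, so the ratio between them, 44.8 to 65.6 per kilobase, is uncertain. For Krt16, 37.6% of such stretches occur in another gene, most often the predicted gene Gm11597, and for Krt8 26.9% occur in its pseudogene Krt8-ps, which had 2.45 CPM. For Krt14 the share was 13.9% (11.0% with Krt16), for Krt5 8.52% and for Krt17 3.99%. What this does to the level of Krt16, 19.4 CPM on average against 3636 CPM for Krt14, was not tested. The other 14 tested keratins had at most 1.97%.

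No keratin passed the test between BGN and Control. Of 21 tested keratins 0 were called (edgeR quasi-likelihood test, Benjamini-Hochberg adjusted p under 0.05, smallest adjusted p = 0.945), against 0% of the 14415 genes tested. DESeq2 also called 0. At an unadjusted p under 0.05 there was 1 keratin, Krt7, against 4.81% of all genes. This count was 6 of 22 without Control replicate 4 (Krt7, Krt18, Krt14, Krt6a, Krt17 and Krt5, against 6.72% of all genes). It was 2 of 22 without Control replicate 5 (Krt7 and Krt15, against 5.07%) and 4 of 42 without the filter on low counts (Krt7, Krt17, Krt14 and Krt16, against 5.84%). Without both replicates numbered 5 the count was 2 of 20 (again Krt7 and Krt15, against 5.99%). DESeq2 gave 2 of 42, Krt7 and Krt17, against 2.81% of all genes it tested. The groups overlapped in CPM for all 21, against 0.728% of all genes without overlap. Estimates of the log2 fold change, BGN over Control, lay below 0 for 14 of 21 keratins (66.7%), against 52.0% of all genes, with a median of -0.066 against -0.0040. By group, 3 of 4 basal, 5 of 5 luminal, 6 of 10 stratified and 0 of 2 hair keratins that were tested lay below 0.

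The abundant keratins had small estimates of the same sign. For all 8 keratins of at least 100 CPM, a level chosen after the values were seen, the log2 fold change was below 0. It ran from -0.16 (Krt17) to -0.050 (Krt19), with a median of -0.078. Of the 2493 genes of that level, 43.3% lay below 0, with a median of 0.0079. Krt79, just under the level at 97.2 CPM on average, had an estimate of 0.097, so a slightly lower level would end the shared sign. The 8 keratins were measured in the same libraries and are not independent. Of the 21 keratins, 16 had their highest CPM in Control replicates 1 or 5 and 8 their lowest in BGN replicate 5. BGN replicate 5 was also the highest library for 2 and Control replicate 5 the lowest for 2. How often these libraries are extreme over all genes was not examined, so the counts are not shown to be particular to keratins. Without Control replicate 5 and BGN replicate 5 the median of the 8 genes was -0.032 and 7 lay below 0, Krt19 at 0.061 being the exception. Over the removals of a single library it ran from -0.11 (without Control replicate 4, all 8 below 0) to -0.049 (without Control replicate 5, 7 below 0).

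The 95% intervals rest on the spread over these 10 libraries, which may be technical, and do not bound a response in other cultures. Krt14 had a log2 fold change of -0.086 ± 0.051 (SE), with a 95% interval of the fold from 0.876 to 1.01. Krt5 had -0.066 ± 0.047 (fold 0.893 to 1.02), Krt8 -0.063 ± 0.041 (0.903 to 1.02) and Krt18 -0.078 ± 0.045 (0.889 to 1.01). Without Control replicate 5 the estimate of Krt14 was -0.029, and that of Krt5 was -0.035 without either replicate numbered 5 and -0.0058 without both. For Krt8 it was -0.039 without Control replicate 1, and for Krt18 -0.048 and -0.050 without Control replicate 5 and BGN replicate 5. Krt7 had the smallest p, at -0.11 ± 0.041, a fold of 0.872 to 0.981 (edgeR unadjusted p = 0.0112, adjusted p = 0.945). The interval lay within 1.5-fold in either direction for 15 of 21 keratins (71.4%), against 84.9% of all genes tested. It did not for Krt15, Krt42, Krt71, Krt4, Krt78 and Krt75.

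**Figure D3:**
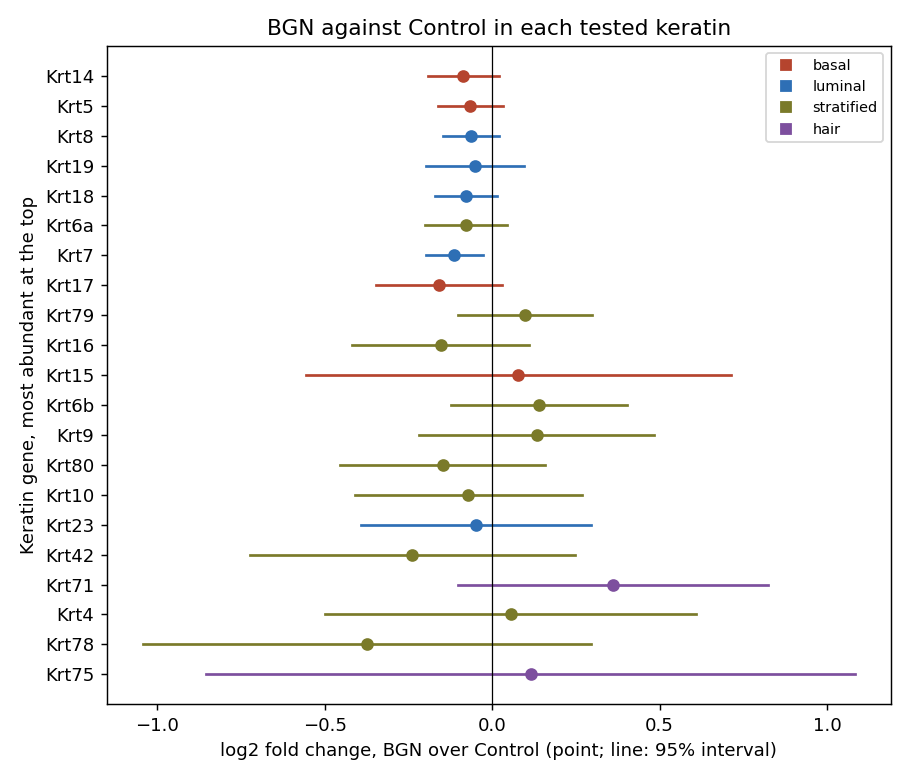
Log2 fold change of BGN over Control (points) with its 95% interval (lines) for the 21 tested keratins, the most abundant at the top, coloured by group. All intervals cross 0 but that of Krt7, and they widen towards the rare keratins at the bottom.

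Among the other members estimates went both ways and none passed. Krt17 and Krt16 had log2 fold changes of -0.16 ± 0.086 and -0.15 ± 0.12, or -0.084 and -0.036 without BGN replicate 5. Krt6b (0.14), Krt9 (0.13), Krt79 (0.097), Krt15 (0.078) and Krt4 (0.055) had estimates above 0. For Krt15 the value rested on Control replicate 5: without it the log2 fold change was 0.41, with an adjusted p of 0.404 by edgeR. Without both replicates numbered 5 the log2 fold change of Krt15 was 0.34, with an adjusted p of 0.621 by edgeR. Krt71 had the highest estimate, 0.36 with an interval from -0.10 to 0.82, and Krt78 the lowest, -0.37 with an interval from -1.04 to 0.29.

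Spread between libraries was above counting error for every tested keratin. Around the group means, the coefficient of variation was 4.11% for Krt7, 4.14% for Krt8, 5.33% for Krt18, 5.96% for Krt5, 7.18% for Krt14 and 9.34% for Krt19, where counting alone gives at most 1.35%. For the 8 abundant keratins the median was 6.57%, against 4.70% over all genes of at least 100 CPM. Krt15 varied more, at 33.9% with counting error at 5.82%, and its highest library exceeded its lowest 2.59-fold. Krt16 stood at 14.9% and Krt79 at 11.2%. For Krt10, Krt23 and Krt71, at 16.6%, 15.4% and 20.4%, counting error alone gave 13.2%, 13.9% and 18.9%.

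**Figure D4:**
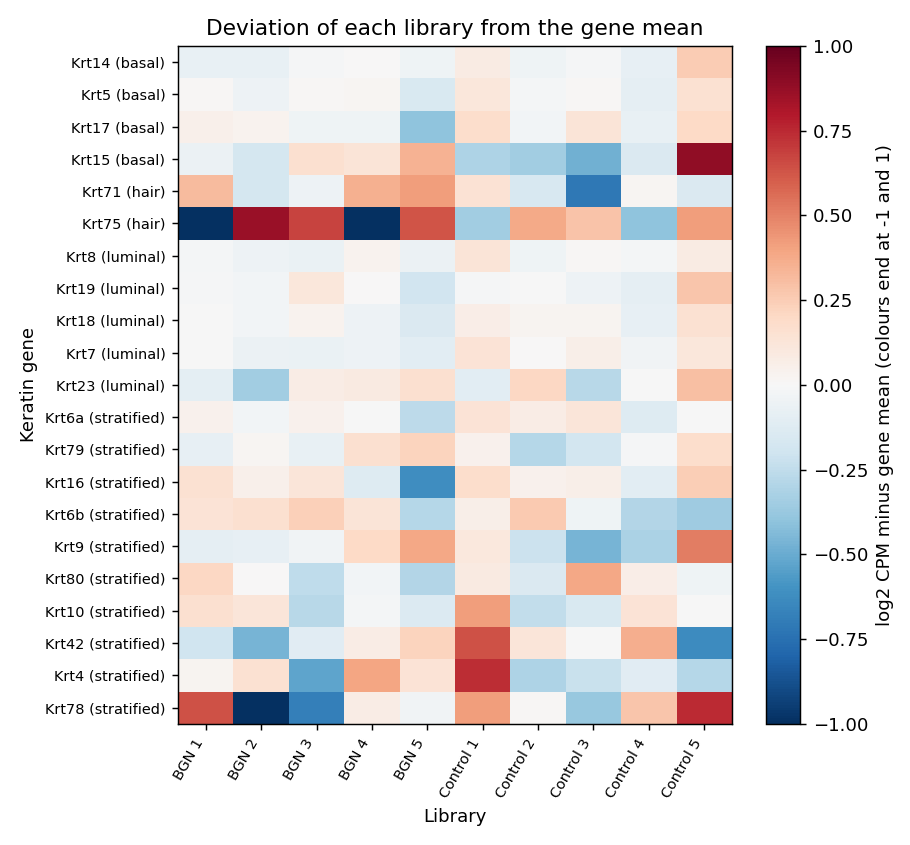
Deviation of each library (columns) from the gene's mean over 10 libraries, in log2 CPM, for each tested keratin (rows, by group). Colours end at -1 and 1. Control 5 is high in Krt15, Krt9 and Krt19, and BGN 5 is low in Krt16 and Krt17 but high in Krt15 and Krt9.

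Whether partner keratins vary together across libraries was examined for 6 pairs, over 10 libraries, on log2 CPM with two-sided permutation tests and Benjamini-Hochberg adjustment over the 6. Krt5 and Krt14, the basal pair, had the strongest relation by rho, with a Pearson r of 0.81 (permutation p = 0.00212, adjusted 0.0127) and a Spearman rho of 0.88 (permutation p = 0.00167, adjusted 0.0100). The adjusted permutation p of rho was 0.0781 when only library totals were used for scaling (rho 0.70), 0.05004 without BGN replicate 3 and 0.0527 without Control replicate 3. Their r was 0.89 without BGN replicate 5 and Control replicate 5, the 2 libraries farthest from the median of Krt5, but 0.49 without Control replicates 1 and 5, the 2 farthest from that of Krt14, so its size rests on those libraries. It was 0.77 on deviations from the group means (permutation, adjusted p = 0.0214). Krt8 and Krt18, the luminal pair, did not pass: r was 0.57 and rho 0.41 (permutation p = 0.0914 and 0.248, adjusted 0.110 and 0.298), and r was 0.0095 without Control replicates 1 and 5. Depth and the mitochondrial share differ between the libraries, and their part was not tested.

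Krt6a and Krt16 had an r of 0.83 (permutation p = 0.0086, adjusted 0.0172) and a rho of 0.52 (permutation p = 0.135, adjusted 0.202), and r was 0.22 without BGN replicate 5 and Control replicate 4. Krt6a and Krt17 had an r of 0.82 (permutation p = 0.00749, adjusted 0.0172) and a rho of 0.55 (permutation p = 0.105, adjusted 0.202), with r at 0.32 without the same 2 libraries. BGN replicate 5 was the lowest library for all 3 genes, and without it alone r was 0.51 for each pair (permutation, adjusted p = 0.204). Without both replicates numbered 5, r was 0.72 for Krt6a and Krt16 and 0.75 for Krt6a and Krt17 (permutation, adjusted p = 0.0662 and 0.0594). Without Control replicate 5 alone, r was 0.89 and 0.91. The size of r in these pairs thus depended on both of those libraries. Without Control replicate 4 alone Krt6a and Krt16 had an r of 0.85 but an adjusted permutation p of 0.0527. Krt14 and Krt8, a basal and a luminal keratin that are not partners, had an r of 0.73 (permutation p = 0.0195, adjusted 0.0293) and a rho of 0.61 (permutation p = 0.0656, adjusted 0.197), with r at 0.38 without Control replicates 1 and 5 and, without BGN replicate 5 alone, an r of 0.73 and an adjusted permutation p of 0.0738. Krt7 and Krt19 had an r of 0.50 (permutation p = 0.142, adjusted 0.142) and a rho of 0.24 (permutation p = 0.513, adjusted 0.513), with r at 0.21 without Control replicates 1 and 5.

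**Figure D5:**
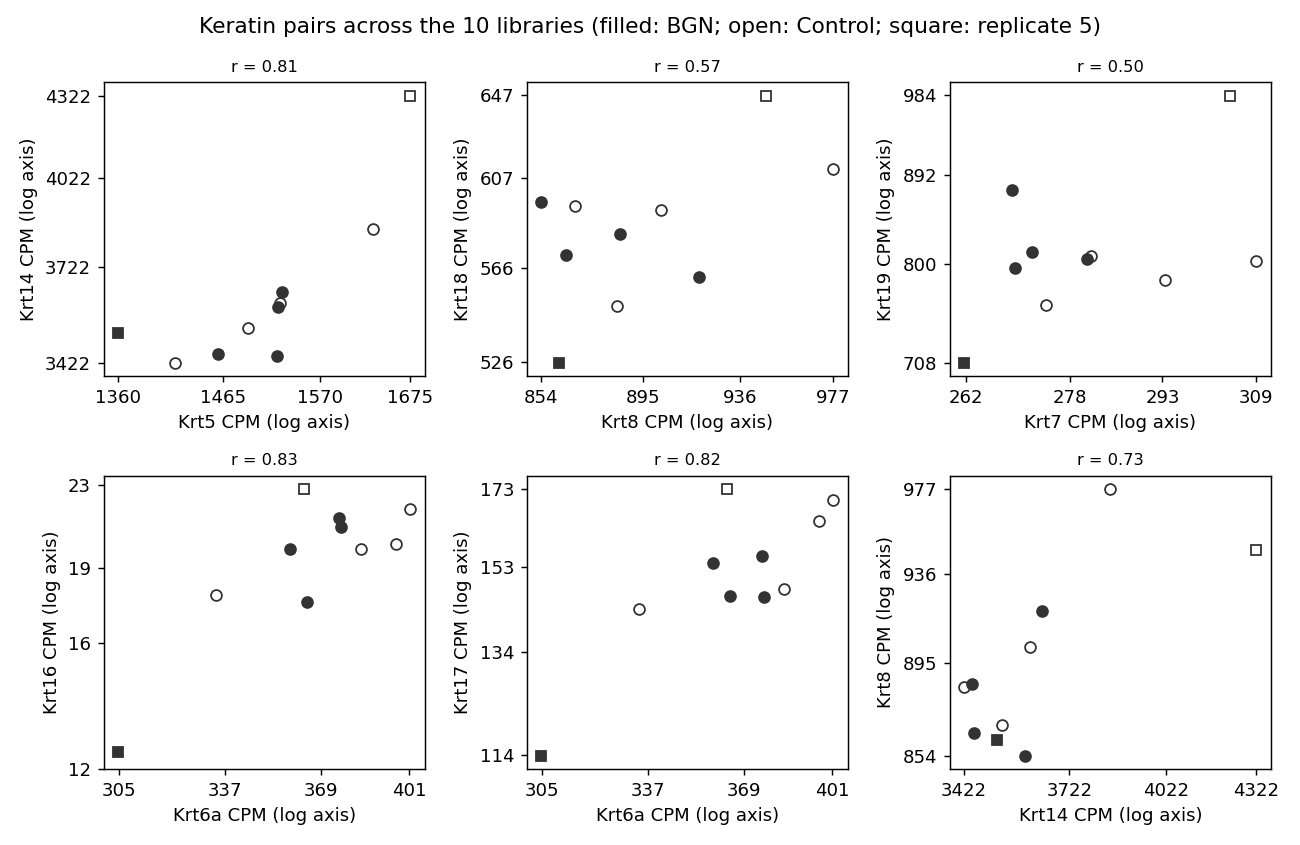
CPM of 6 keratin pairs on log axes, 1 point per library, filled for BGN, open for Control and square for replicate 5, with Pearson r of log2 CPM above each panel. Krt5 and Krt14 rise together through most libraries (r = 0.81), while in the Krt6a panels BGN replicate 5 lies far below the rest.

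Genes that anchor, regulate or accompany keratin filaments were equally without a call, 0 in every list by edgeR. All 11 plakin and desmosomal anchor genes were tested, 7 with estimates above and 4 below 0 (median 0.038). Dsp, which encodes the desmoplakin that ties keratins to desmosomes, had 798 ± 71.4 CPM under BGN against 773 ± 55.3 CPM without it, and the plakophilin gene Pkp1 at 613 ± 21.0 and 627 ± 20.3 CPM. The smallest p among them were those of Macf1 (log2 fold change 0.13) and Eppk1, which encodes epiplakin (0.19). Of the 7 hemidesmosome genes, through which basal keratins reach the basement membrane, 4 lay above and 3 below 0 (median 0.013). Itga6 was at 754 ± 53.2 and 730 ± 39.0 CPM, Col17a1 at 639 ± 30.3 and 629 ± 51.0 CPM, and Cd151 had a log2 fold change of -0.050.

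Of 18 transcription factor genes known from epithelial or keratin gene control, 17 were tested, 11 above and 6 below 0 (median 0.029). Ehf, an epithelial ETS factor, had 725 ± 26.1 CPM under BGN against 725 ± 17.9 CPM without it. Runx1 was at 563 ± 23.0 and 518 ± 25.1 CPM, with a log2 fold change of 0.12 ± 0.042 (edgeR unadjusted p = 0.0096, adjusted p = 0.945), and Sp1 had 0.098. Of 32 cornified envelope genes, which act in the last step of skin differentiation, 11 were tested, 6 above and 5 below 0 (median 0.0096). Dmkn was at 120 ± 13.6 and 120 ± 12.2 CPM, Lypd3 at 46.3 ± 4.29 and 49.0 ± 2.85 CPM, and Casp14 and Krtdap had log2 fold changes of -0.63 and 0.32. Of 16 other intermediate filament genes 9 were tested, 3 above and 6 below 0 (median -0.041), with the lamin genes Lmna at 363 ± 20.6 and 377 ± 27.9 CPM and Lmnb1 at 112 ± 6.02 and 112 ± 7.50 CPM, and Gfap, at 0.932 and 1.27 CPM, with a log2 fold change of -0.46.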

How the data were processed

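The deposited values are raw read counts per gene symbol, 1 column per library. Tools listed in the submitters' processing notes are HISAT2 2.2.1 and cutadapt 1.9.1, besides HTSeq, FastQC and DESeq2, with build GRCm39. No source used here gives the annotation release or strand setting. Libraries were poly-A selected, per the labels' protocols. Columns were matched to samples by description and grouped by title. No 2 libraries agreed within sampling noise (chi-square per degree of freedom at least 2.43).

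The robust quasi-likelihood test of edgeR 4.0.16, under R 4.3.3, was run on genes passing filterByExpr, with TMM scaling and treatment as the single term, Benjamini-Hochberg adjusted over 14415 genes. The SE is the fold change estimate divided by the root of F. Log2 CPM used a prior count of 2, correlations 100000 permutations. Lengths and shared 50-base stretches came from GENCODE M21 (GRCm38) by symbol. The steps were tested on simulated data. Alternatives were DESeq2 1.42.0 and its size factors, library totals, other filters, the replicate block, leaving out libraries and, added after seeing the data, exon-union lengths. Every tested keratin is named, and of each other list the 2 most abundant genes and the 2 of smallest p. Keratin groups, lists and tests were chosen with earlier results of these data known.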

Additional observations from a re-analysis of the deposited data

Results flagged for a closer look

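In 52 sets of 5 libraries (21 keratins and 5 summary measures, each in BGN and in Control) 8 held a library far from the rest by Dixon's test, where chance gives about 1 in 20. Control replicate 5 was high for Krt19 (984 CPM, next 808 CPM) and for Krt15 (26.8 CPM, next 13.0 CPM). BGN replicate 5 was low for Krt6a (305 CPM, next 358 CPM), Krt17 (114 CPM, next 146 CPM) and Krt6b (5.70 CPM, next 7.64 CPM), genes of which the first and the last share sequence. The next values are those within the same group. For Krt6b, Control replicates 4 and 5 lay lower still, at 5.69 and 5.43 CPM. Control replicate 1 was high for Krt4, at 1.86 CPM with the next at 0.983 CPM. In Control replicate 5 the ratio of type I to type II keratins, 2.45, and that of Krt14 to Krt5, 3.34, both per kilobase, also lay above the other 4 Control libraries. The ratio of Krt14 to Krt5 was just as high in BGN replicate 5, at 3.34, though it was not flagged there. The counts are not independent, since the same 2 libraries recur and the ratios contain the genes.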

How the results depend on the processing

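Keratins called stayed at 0 under each of the 17 alternatives. Over all genes 0 were called, and 3 without the filter on low counts, none of them a keratin. Leaving out single libraries turned the sign of some estimates near 0: log2 fold changes then ranged from -0.12 to 0.026 for Krt23, -0.14 to 0.041 for Krt10, -0.086 to 0.020 for Krt19, -0.13 to 0.37 for Krt75, -0.025 to 0.41 for Krt15 and -0.047 to 0.32 for Krt4. Without both replicates numbered 5, Krt19 was at 0.061, Krt16 at 0.0050 and Krt4 at -0.034, the correlation r of Krt7 and Krt19 turned to -0.25, and 3 pairs lost their call: Krt6a and Krt16 (r = 0.72), Krt6a and Krt17 (0.75) and Krt14 and Krt8 (0.79). Without single libraries r ranged from 0.41 to 0.67 for Krt8 and Krt18, 0.20 to 0.65 for Krt7 and Krt19, 0.51 to 0.89 for Krt6a and Krt16, 0.51 to 0.91 for Krt6a and Krt17, 0.71 to 0.79 for Krt14 and Krt8 and 0.74 to 0.90 for Krt5 and Krt14. Without BGN replicate 3 the first 2 of these pairs gained a call. The causes were not tested. Same-numbered BGN and Control libraries deviated together with r from -0.020 to 0.20, and only BGN replicate 2 correlated best with its own number, so the numbers were not taken as pairs. With the replicate block 0 genes and 0 keratins were called by edgeR (825 genes at an unadjusted p under 0.05, against 694), and Krt7 had a log2 fold change of -0.11. Leaving out the 2 libraries farthest by the second gene of a pair, an alternative chosen after seeing the data, gave r = 0.49 for Krt5 and Krt14. Counting error alone was 24.4% for Krt78 and 34.3% for Krt75, the rarest tested keratins, whose spread was 40.0% and 57.7%.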
